A study of Homo sapiens with 18 samples.

Results

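The data described here compare MDA-MB-231 cells induced to express ZMYND8 with cells induced to express GFP, both after 6 h of doxorubicin. The comparison was defined by the sample labels and holds 4 of the 18 libraries of the series, 2 per construct. MDA-MB-231 is a human cell line of triple-negative, basal-type breast cancer, and doxorubicin is an anthracycline that poisons topoisomerase II and damages DNA. Both lines hold a doxycycline-responsive lentiviral vector (pInducer20) with either ZMYND8 or GFP, and were kept stable with G418 (neomycin resistance). ZMYND8 is labelled as Flag-tagged, and the vector was switched on with 250 ng/mL doxycycline. After 4 h of doxycycline, 0.6 µM doxorubicin was added for 6 h while doxycycline stayed in the medium, so the GFP cells carried the same drugs and selection. Each construct was present in 1 cell line, and the effect of the construct and any other difference between both lines cannot be told apart. Libraries of the same lines without doxorubicin (0 h, with the time on doxycycline not stated) and after 48 h are used below only to set the 6 h values beside them.

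ZMYND8 is a chromatin reader with a PHD finger, a bromodomain and a PWWP domain, which bind modified histone tails. It is known to act with histone demethylases of the KDM5 family and with the NuRD complex, which holds histone deacetylases and a nucleosome remodeller, in repressing transcription and at sites of DNA damage. Cells that meet doxorubicin activate DNA damage checkpoints, which halt the cell cycle and allow repair or cell death.

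The GFP libraries held 20356028 and 19614037 counted read pairs and the ZMYND8 libraries 22059838 and 20846331. Levels are given as CPM, that is counts divided by library size after TMM normalization, with replicate 1 first. The submitters describe both libraries of a condition as biological replicates. Replicates differed beyond counting noise, with a chi-square per degree of freedom of 2.48 in GFP and 3.66 in ZMYND8 cells, against 85.5 to 91.1 between a GFP and a ZMYND8 library. Mitochondrial genes took 1.04% and 1.03% of the counts in GFP and 1.41% and 1.55% in ZMYND8 cells, and the part of this in the results was not tested. Markers of the cell line were abundant in all 4 libraries, and their sum was 7948 and 7506 CPM in GFP and 8399.9 and 8962 CPM in ZMYND8 cells. Vimentin (VIM), an intermediate filament protein of mesenchymal cells, was at 4037 and 3721 CPM in GFP and 4122 and 4450.3 CPM in ZMYND8 cells. Of the leukocyte markers, CD3E, MS4A1 and NKG7 had 0 counts in all 4 libraries and CD3D had 3 and 2 counts in GFP and 0 in ZMYND8 cells, while CD14 and PTPRC were detected and are given below.

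As a check of the labels, ZMYND8 itself (chr20:47209214-47356889, hg38, minus strand), counted together with any reads of the introduced cDNA, was measured first. It was at 93.8 and 99.4 CPM in GFP and 829 and 898 CPM in ZMYND8 cells, so that the groups lay far apart. The log2 fold change of ZMYND8 over GFP cells was 3.16 ± 0.05 (SE, n = 2 per group; edgeR quasi-likelihood test, adjusted p = 1.49e-26). At 0 h the gene was at 209 and 208 CPM in GFP and 922 and 927 CPM in ZMYND8 cells, which is 2.15 ± 0.05 on the log2 scale. The difference between lines was therefore larger at 6 h than at 0 h by 1.01 ± 0.07 on the log2 scale (adjusted p = 4.25e-11). The level in GFP cells was lower at 6 h than at 0 h, while that in ZMYND8 cells was similar.

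At 6 h, 18801 of 60603 genes were expressed highly enough to be tested. The log2 fold change of ZMYND8 over GFP cells is written log2FC below. A gene was called at an adjusted p of at most 0.05 when its log2FC was 1 or more, or -1 or less. By this rule 3014 genes were called, 16% of those tested. Of these, 1177 (6.26%) were higher and 1837 (9.77%) were lower in ZMYND8 cells. The called genes that were higher included 811 protein-coding genes and 249 long non-coding RNAs, and those that were lower 1318 and 432. Among the 6751 genes with an average of at least 5 log2 CPM the called share was 6.21%, with 199 higher and 220 lower. At any fold, 10438 genes (55.5%) passed the adjusted p, 28.9% of those tested higher and 26.6% lower. The median log2FC over all tested genes was 0.00. Because so large a share of genes passed, each gene group below is to be read against these shares, also where they are not repeated. Where a gene is said to have risen or fallen, ZMYND8 cells are compared with GFP cells at the same time, and the GFP libraries are given first. In the plot of change against level, called genes reach from the weakest to the most abundant transcripts.

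**Figure D1:**
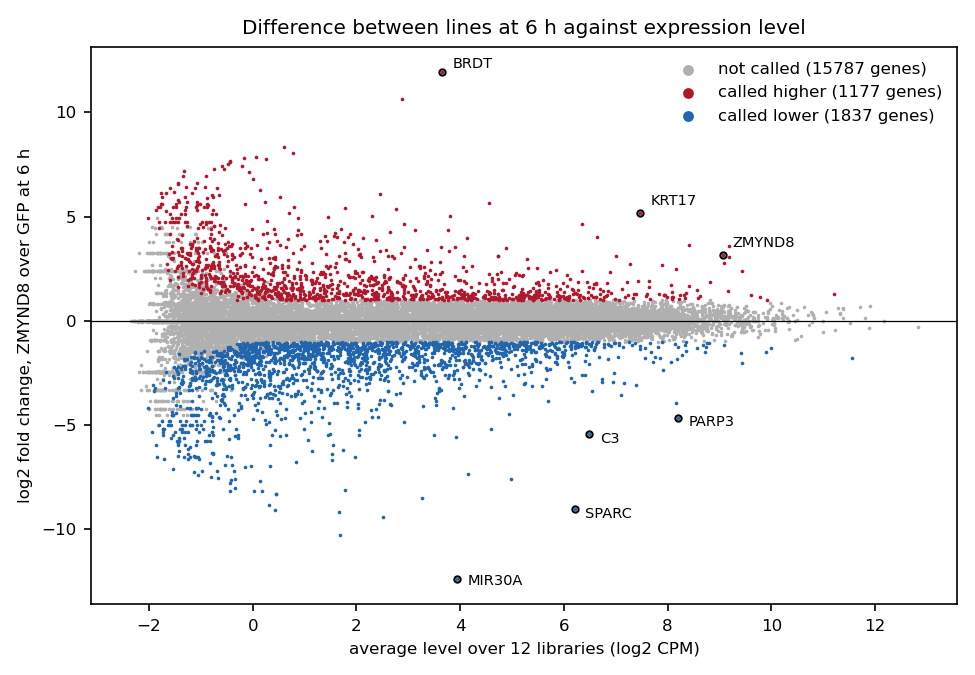
Log2 fold change of ZMYND8 over GFP cells at 6 h (vertical axis) against the average level over the 12 libraries of the inducible system (horizontal axis, log2 CPM), 1 point per tested gene. The 1177 genes called higher are red, the 1837 called lower are blue, and 7 genes named in the text are circled.

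Some of the largest differences were between genes read in 1 line only. BRDT, a testis-specific bromodomain protein of the BET family, had 0 counts in both GFP libraries and was at 23.7 and 22.6 CPM in ZMYND8 cells, at least 146-fold higher when set against a floor of 3 counts per library. MYO1G, a class I myosin of blood cells, also had 0 counts in GFP cells and reached 10.4 and 8.46 CPM in ZMYND8 cells, at least 59.3-fold higher. AMPH (amphiphysin, which bends membranes in endocytosis) was at 0.21 and 0.107 CPM in GFP and 11.4 and 10.6 CPM in ZMYND8 cells. Each of these 3 genes separated the lines completely, as did 74.1% of all tested genes. KRT17, a keratin of basal and stressed epithelium, rose from 5.2 and 6.42 CPM to 215 and 198 CPM, a log2FC of 5.15 ± 0.08. In the other direction, SPARC, a secreted matrix glycoprotein, was at 182 and 172 CPM in GFP and 0.345 and 0.315 CPM in ZMYND8 cells. Its log2FC of -9.04 ± 0.14 was the largest among abundant genes. SERPINA1 (alpha-1 antitrypsin) was at 59.9 and 58.7 CPM in GFP and 0.345 and 0.263 CPM in ZMYND8 cells. NTM (neurotrimin, a neural adhesion protein) was at 7.87 and 6.9 CPM in GFP cells, with 0 counts in ZMYND8 cells, at least 48.4-fold lower. F2RL3, a thrombin receptor, was at 3.62 and 3.21 CPM in GFP cells and had 0 counts in ZMYND8 cells, at least 22.4-fold lower. The ratio of GFP to ZMYND8 cells was 399 (95% interval 110.1 to 3302) for SERPINA5, a serine protease inhibitor, and 339.8 (95% interval 60.6 to 13461) for MMP8, neutrophil collagenase, where the intervals cover counting error only. In all, one line had 3 or fewer counts in total for 228 of the 1177 genes called higher and for 282 of the 1837 called lower.

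The transient control cells of the series, which carry neither inducible vector and were normalized separately, allowed a look at these genes in a separate culture. Of 22 genes with 3 or fewer counts in GFP cells and at least 1 CPM in ZMYND8 cells, 4 had more than 3 counts in those controls. Of 53 genes with the reverse pattern, 28 did. These controls were sequenced to 5858550 and 5904185 counts, which is shallower, so a count near 0 there says less.

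MIR30A, the annotated hairpin of microRNA 30a, was at 30.8 and 32.8 CPM in GFP cells and had 0 counts in both ZMYND8 libraries, at least 208-fold lower. It lies at chr6:71403551-71403621 (hg38, minus strand, as the deposited table gives it) within the span of LINC00472, a long non-coding RNA at chr6:71343427-71420745. LINC00472 itself was at 38.1 and 35.5 CPM in GFP and 30.6 and 32 CPM in ZMYND8 cells, a log2FC of only -0.24 ± 0.09. The hairpin was also at 0 counts in both transient control libraries and in the ZMYND8 cells at 0 and 48 h, against 41.5 and 35.9 CPM in GFP cells at 0 h and 22.7 and 23.8 CPM at 48 h. Poly(A) read pairs over the hairpin annotation do not measure the mature microRNAs. Those are shown from RefSeq (GRCh38.p14, 5′ to 3′) to say which product the annotation stands for, with the seed, bases 2 to 8, in capitals.
hsa-miR-30a-5p: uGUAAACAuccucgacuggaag
hsa-miR-30a-3p: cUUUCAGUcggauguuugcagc

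Among abundant genes the higher group was led by KRT17, UCA1, IL11, OASL, ZC3HAV1, ZMYND8, IFI44 and PMAIP1. UCA1, a long non-coding RNA first described in bladder cancer, was at 4.2 and 5.78 CPM in GFP and 129 and 117 CPM in ZMYND8 cells. ZC3HAV1, the zinc-finger antiviral protein that binds CpG-rich RNA, was at 78.9 and 76.2 CPM in GFP and 916 and 979 CPM in ZMYND8 cells (log2FC 3.61 ± 0.05). Both genes were higher in each ZMYND8 library than in either GFP library. The lower group was led by SPARC, C3, PARP3, PLAT, CA12, PTK7, TENM2 and MRC2. C3, the central complement component, was at 123 and 119 CPM in GFP and 2.81 and 2.73 CPM in ZMYND8 cells. PARP3, a mono-ADP-ribosyltransferase of the DNA break response, was at 504 and 497 CPM in GFP and 19.4 and 20.6 CPM in ZMYND8 cells (log2FC -4.65 ± 0.05, adjusted p = 5.96e-29 in edgeR). CA12, a membrane carbonic anhydrase, was at 97.5 and 98.5 against 5.82 and 7.93 CPM, and PTK7, a pseudokinase of planar cell polarity, at 235 and 226 against 18.9 and 20.3 CPM (GFP against ZMYND8). The groups did not overlap for these 4 genes, nor for 74.1% of all tested genes.

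**Figure D2:**
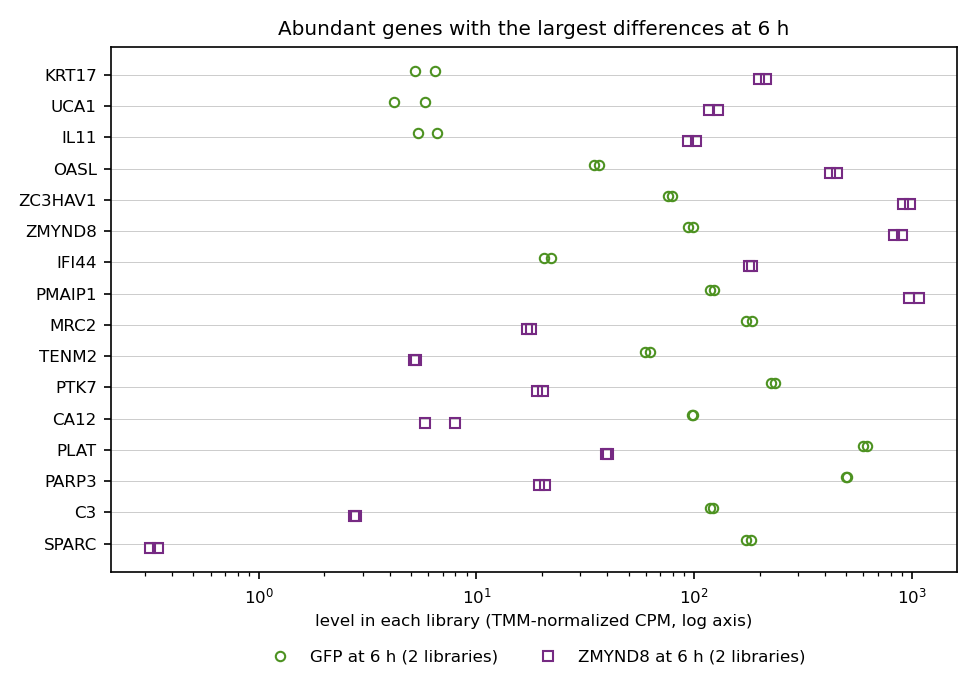
Level in each library at 6 h (horizontal log axis, TMM-normalized CPM) of the 16 genes with an average of at least 5 log2 CPM and the largest log2 fold changes, 8 higher and 8 lower. Green circles are the 2 GFP libraries and purple squares the 2 ZMYND8 libraries, which do not overlap for any gene shown.

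The list of ZMYND8 and its known partners also holds BRDT, and ZMYND8 itself is the gene that the vector carries. In this list, 20 of 31 tested members were higher and 7 lower, with a median log2FC of 0.19, and ZMYND8 and BRDT were its only called members. KDM5C, the X-linked demethylase of histone H3 lysine 4 that works with ZMYND8, was at 118 and 111 CPM in GFP and 197 and 214 CPM in ZMYND8 cells, a log2FC of 0.85 ± 0.05. EZH2, the methyltransferase of Polycomb complex 2, was at 75.1 and 72.3 CPM in GFP and 116 and 118 CPM in ZMYND8 cells, and its log2FC was 0.66 ± 0.05. ZNF687 and ZNF592, which form a zinc finger complex with ZMYND8, had log2FCs of 0.44 and 0.62. ZNF532, a related zinc finger protein, fell from 45.5 and 48.7 CPM to 28.3 and 23.4 CPM, and MTA3, a NuRD subunit, from 28.6 and 30.4 CPM to 16.3 and 17.7 CPM. The NuRD remodeller CHD4 did not pass the test, at 12.9 and 14.8 against 14.3 and 14.8 CPM.

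Of the lists with more than 5 tested members, the heat shock genes were the one in which each tested member passed in the same direction. All 21 tested members were higher in ZMYND8 cells, against 28.9% of all tested genes, and the median log2FC was 0.79. Of the 24 members, HSPA1A, HSPA1B and HSPA1L had 3 or fewer counts in each of the 4 libraries and could not be tested. Multi-mapping reads were left out of the counts, and the direction of these genes is not known. HSPA6, a strictly inducible HSP70 that shares sequence with a pseudogene, rose from 1.47 and 1.34 CPM to 71.1 and 69.1 CPM, a log2FC of 5.64 ± 0.14 (adjusted p = 3.14e-22). HSPB8, a small heat shock protein, was at 29.8 and 26.9 CPM in GFP and 113 and 114 CPM in ZMYND8 cells, and its co-chaperone BAG3 at 110.3 and 101 CPM in GFP and 242 and 256 CPM in ZMYND8 cells. HSPH1 (HSP105) was at 277 and 278 CPM in GFP and 786 and 773 CPM in ZMYND8 cells. The mitochondrial chaperonins rose together, HSPD1 from 602 and 619.5 CPM to 1459 and 1420.2 CPM and HSPE1 from 43.2 and 41.5 CPM to 105 and 96.5 CPM. HSF1, the master regulator of the heat shock response, had a log2FC of 0.84 ± 0.05. At the low end stood HSPA5 and HSP90B1, chaperones of the endoplasmic reticulum, with log2FCs of 0.15 and 0.17. The list's median was 0.84 at 0 h and 0.26 at 48 h.

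Heat shock factors bind repeats of a short motif, searched here as GAANNTTCNNGAA (N, any base) on both strands in the 250 bases before each gene's start in RefSeq (GRCh38.p14). Of 19 heat shock members with a promoter entry, 3 held it (HSPA6, HSPA8 and DNAJB6), as did 0.439% of 27305 promoters. A match describes letters and not a bound site. The stretch of the HSPA6 promoter that holds it, chr1:161524389-161524508 on the plus strand, is shown because this gene rose the most in the list, with the motif in capitals.
HSPA6: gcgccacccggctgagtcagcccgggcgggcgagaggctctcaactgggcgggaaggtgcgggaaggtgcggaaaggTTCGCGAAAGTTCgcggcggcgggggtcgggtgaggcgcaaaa

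Interferon-stimulated genes were higher more often than genes at large. In this list, 25 of 43 tested members were higher and 12 lower, or 58.1% and 27.9% against 28.9% and 26.6% of all tested genes, so the lower share was near that background, and the median log2FC was 0.52. RSAD2 (viperin) was at 1.15 and 1.18 CPM in GFP and 19.5 and 17.3 CPM in ZMYND8 cells, OASL, a homologue of the oligoadenylate synthetases, at 34.7 and 36.6 CPM in GFP and 453 and 421 CPM in ZMYND8 cells, and IFI44 at 20.5 and 22 CPM in GFP and 184 and 179 CPM in ZMYND8 cells. The IFIT genes, whose proteins bind viral RNA caps and 5′ ends, moved apart. IFIT1 (59 and 59 CPM in GFP and 354 and 307 CPM in ZMYND8 cells), IFIT2 (85.6 and 90.6 CPM in GFP and 609.8 and 602 CPM in ZMYND8 cells) and IFIT3 (164 and 165 CPM in GFP and 881 and 864 CPM in ZMYND8 cells) rose, and IFIT5 fell from 64.9 and 64.1 CPM to 49.6 and 46.7 CPM. Of the RNA sensors, IFIH1 (MDA5) had a log2FC of 1.79 ± 0.07 and RIGI one of 1.14 ± 0.04. ISG15, the ubiquitin-like modifier, was at 127 and 122 CPM in GFP and 465 and 449.7 CPM in ZMYND8 cells. The members that fell included IFITM1, IFITM2 and IFITM3, membrane proteins that block viral entry and resemble each other in sequence. IFITM1 was at 38.6 and 36.4 CPM in GFP and 6.36 and 6.62 CPM in ZMYND8 cells (log2FC -2.53 ± 0.09). GBP2, a guanylate-binding protein of the interferon gamma response, was at 63.8 and 63.9 CPM in GFP and 15.5 and 14.9 CPM in ZMYND8 cells, and the transcription factor IRF1 at 150.2 and 145 CPM in GFP and 81.8 and 82.3 CPM in ZMYND8 cells. IFI27 was at 84.2 and 39 CPM in GFP and 16.6 and 18.2 CPM in ZMYND8 cells, with GFP replicates that differed more than 2-fold, though both stayed above the ZMYND8 libraries. STAT2 (56.7 and 57.8 against 50.9 and 56 CPM) and IRF9 (0.42 and 0.214 against 0.197 and 0.105 CPM), of the complex that binds these promoters, did not pass. The IRF9 counts were near the floor, so its result says little about a difference.

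The response element of that complex was searched as GAAANNGAAA on both strands of the same 250 bases. It was found in 18 of 33 members with a promoter entry and in 3.07% of all 27305 promoters. Of the members that were higher, 12 of 19 held it, and of those that were lower, 5 of 9. A total of 4 stretches, chosen after the values were seen as 2 genes that rose and 2 that fell, are shown with each match in capitals. IFI44 (chr1:78649669-78649788) and IFIT1 (chr10:89392440-89392559) rose, and IFITM1 (chr11:313920-314039) and IFI27 (chr14:94110561-94110680) fell, all on the plus strand.
IFI44: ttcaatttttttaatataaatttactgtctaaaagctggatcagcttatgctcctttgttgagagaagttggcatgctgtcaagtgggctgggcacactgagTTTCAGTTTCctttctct
IFIT1: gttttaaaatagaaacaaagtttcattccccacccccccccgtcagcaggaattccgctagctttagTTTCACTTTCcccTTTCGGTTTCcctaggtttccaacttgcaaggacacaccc
IFITM1: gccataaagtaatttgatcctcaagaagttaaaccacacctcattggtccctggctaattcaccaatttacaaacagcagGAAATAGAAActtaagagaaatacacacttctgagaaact
IFI27: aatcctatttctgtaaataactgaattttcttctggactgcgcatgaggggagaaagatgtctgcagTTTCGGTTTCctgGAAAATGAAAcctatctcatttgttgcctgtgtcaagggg
By the counts above, and not by the stretches shown, both directions were represented among promoters of the list that hold these letters.

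Inflammatory genes were mostly lower. Of the cytokines, chemokines and NF-kB targets, 8 of 34 tested members were higher and 22 lower, and the median log2FC was -0.60. CXCL8 (interleukin 8), a neutrophil chemokine, was at 60.1 and 64.2 CPM in GFP and 5.18 and 4.2 CPM in ZMYND8 cells (log2FC -3.72 ± 0.12), and CXCL1, of the same family, at 18.6 and 19.3 CPM in GFP and 1.58 and 0.998 CPM in ZMYND8 cells. The adhesion molecule ICAM1 fell from 240.4 and 237 CPM to 26.4 and 29.6 CPM. Interleukin 1 genes were low but fell in the same direction, IL1A from 6.04 and 7.76 CPM to 1.38 and 0.84 CPM and IL1B from 8.14 and 5.57 CPM to 1.48 and 1.37 CPM. NFKBIA, the inhibitor that NF-kB induces, was at 124 and 119 CPM in GFP and 52.6 and 48.2 CPM in ZMYND8 cells, and CSF1, the macrophage growth factor, at 322 and 305 CPM in GFP and 153 and 159.5 CPM in ZMYND8 cells. RELB and NFKB1, subunits of NF-kB, had log2FCs of -0.63 and -0.25. Against this direction, IL11, a gp130 cytokine, rose from 5.41 and 6.58 CPM to 103 and 93.9 CPM. IL6, another gp130 cytokine, was at 42.3 and 41.3 CPM in GFP and 98.6 and 88.1 CPM in ZMYND8 cells, and TNFAIP3 (A20), a brake on NF-kB, at 33.6 and 36.2 CPM in GFP and 54.6 and 57.7 CPM in ZMYND8 cells.

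No tested member of the antigen presentation list was higher. Of 24 members 13 could be tested, and 9 of these were lower and 4 did not pass, with a median log2FC of -0.46. CD74, the invariant chain of MHC class II, fell from 424 and 397 CPM to 100 and 106 CPM (log2FC -2.00 ± 0.06). PSMB10, an immunoproteasome subunit, was at 31.5 and 31.8 CPM in GFP and 12.6 and 13.8 CPM in ZMYND8 cells. HLA-B was at 67 and 66 CPM in GFP and 25.2 and 26.9 CPM in ZMYND8 cells, and HLA-C at 17.6 and 21.2 CPM in GFP and 10.9 and 10.5 CPM in ZMYND8 cells. Reads shared among HLA genes were left out of the counts, so their levels are uncertain. B2M, the light chain of MHC class I, was at 279.5 and 278 CPM in GFP and 290.4 and 254 CPM in ZMYND8 cells and did not pass.

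Genes of cholesterol and fatty acid synthesis were lower as a block. In this list, 2 of 32 tested members were higher and 26 lower, against 26.6% of all tested genes that were lower, and the median log2FC was -0.57. SQLE, squalene epoxidase, fell from 87.3 and 89.5 CPM to 20.01 and 19.6 CPM (log2FC -2.16 ± 0.06). FADS2, a fatty acid desaturase, was at 497 and 483 CPM in GFP and 134 and 138 CPM in ZMYND8 cells, and SCD, stearoyl-CoA desaturase, at 1597 and 1574 CPM in GFP and 642 and 663 CPM in ZMYND8 cells. HMGCS1, which makes HMG-CoA for sterols, was at 134 and 131 CPM in GFP and 52 and 52 CPM in ZMYND8 cells. The regulators SREBF1 and SREBF2 had log2FCs of -0.79 ± 0.05 and -0.56 ± 0.04. EBP, on the X chromosome, and PMVK were the members that were higher, with log2FCs of 0.65 ± 0.09 and 0.22 ± 0.08, and PMVK did not pass with library totals as the scale (0.17), without a filter (0.18), with DESeq2 (0.20), without ZMYND8 replicate 1 (0.13) or without GFP replicate 2 (0.15). The median of the list was -0.35 at 0 h and -0.89 at 48 h. A sterol element searched as TCACNNCAC was in 1 of 25 promoters of the list and in 2.81% of all.

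**Figure D3:**
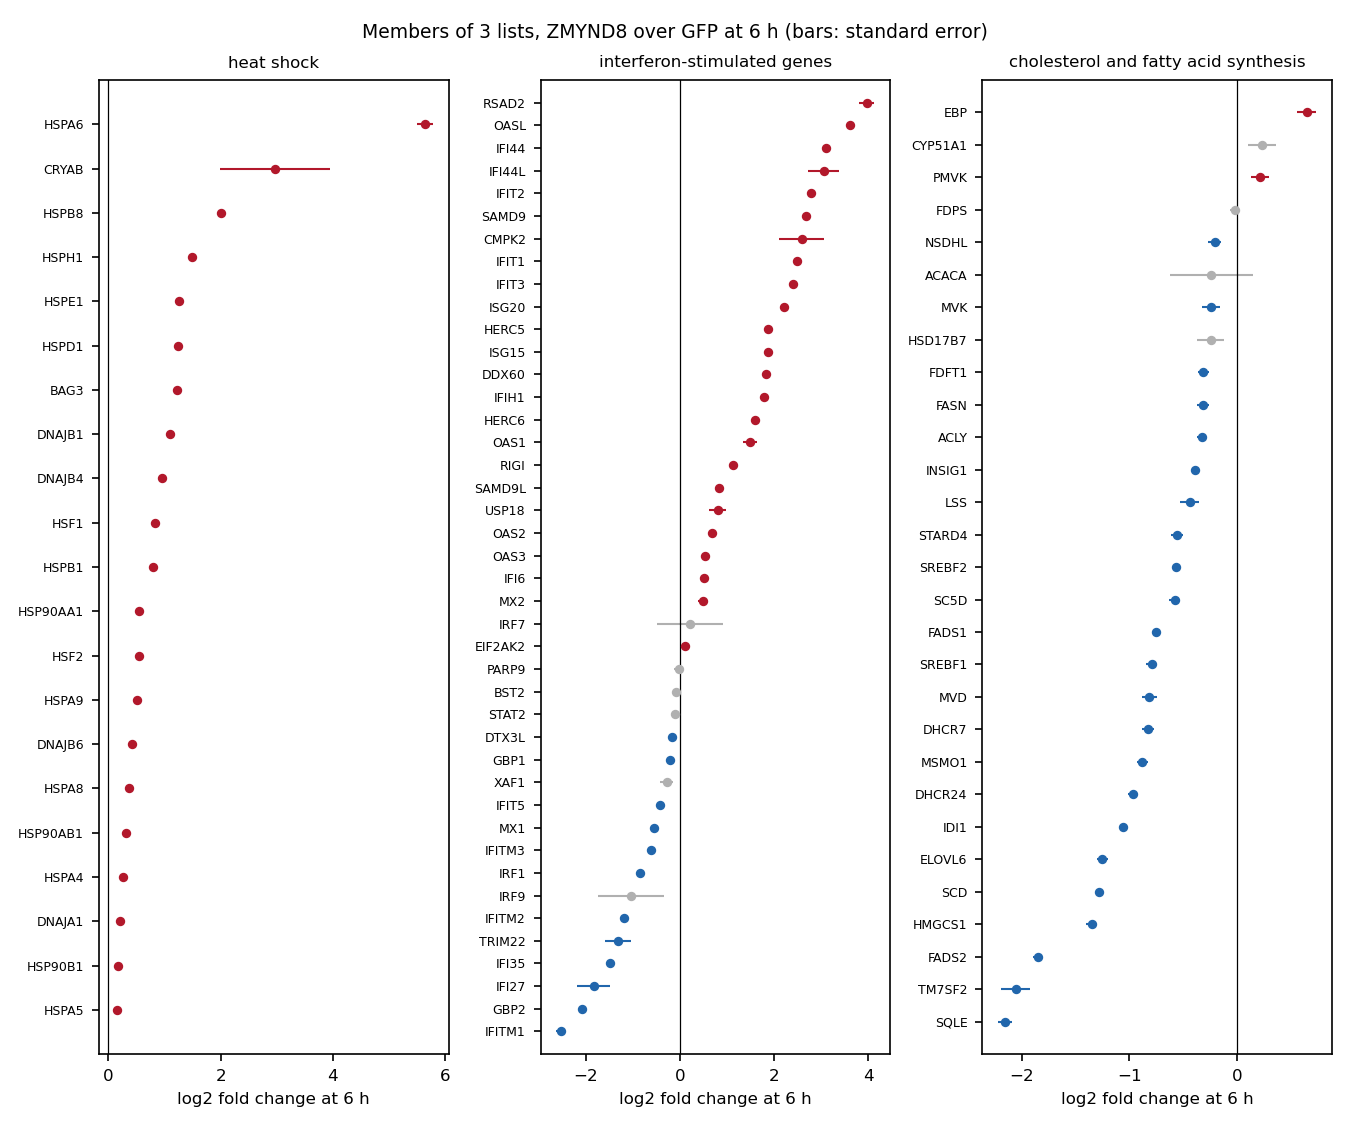
Log2 fold change at 6 h (horizontal axes, bars are standard errors) of tested members of the heat shock, interferon and lipid synthesis lists, with members that are not reported here left out. Red members were higher and blue ones lower past the adjusted p, and grey members did not pass. All 21 tested heat shock members lie to the right of 0, while most lipid synthesis members shown lie to the left and passed.

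Growth-factor responsive transcription factors were mostly higher. Of the immediate early and AP-1 genes, 28 of 35 tested members were higher and 4 lower, with a median log2FC of 0.69. FOS was at 2.83 and 3.43 CPM in GFP and 27.8 and 25.7 CPM in ZMYND8 cells, EGR1 at 42.4 and 35.9 CPM in GFP and 186 and 208 CPM in ZMYND8 cells and DUSP1, a phosphatase of MAP kinases, at 35.8 and 35.2 CPM in GFP and 237 and 227 CPM in ZMYND8 cells. KLF4, a zinc finger regulator of epithelial state, was at 59.6 and 59.5 CPM in GFP and 221 and 226 CPM in ZMYND8 cells, and ATF3, a stress-induced factor, at 20.7 and 21.4 CPM in GFP and 72.1 and 74.8 CPM in ZMYND8 cells. JUN rose less (log2FC 0.70 ± 0.04), and JUNB and DUSP6 were lower (-0.17 and -0.44), and without GFP replicate 2 JUNB no longer passed (-0.14). The count of lower members was 1 without that library, and 2 without either ZMYND8 library or with DESeq2. MYC, a driver of growth, was at 216 and 196 CPM in GFP and 257 and 266 CPM in ZMYND8 cells.

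Of the integrated stress response list, 14 of 26 tested members were higher and 6 lower (median 0.20). These were 53.8% and 23.1%, against 28.9% and 26.6% of all tested genes, so the lower share was near that background. DDIT3 (CHOP), a pro-apoptotic factor, was at 16.9 and 15 CPM in GFP and 37.4 and 38.7 CPM in ZMYND8 cells, while TRIB3 and PSPH, both ATF4 targets, were lower, with log2FCs of -0.30 and -0.36. SLC7A5, an amino acid transporter, fell from 1401 and 1296 CPM to 899 and 980.2 CPM. Without GFP replicate 1, TRIB3 no longer passed (-0.24).

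The listed p53 targets, genes of damage-induced arrest, repair and death, moved both ways, and 14 of 33 tested members were higher and 15 lower. PMAIP1 (NOXA), a BH3-only killer protein, rose from 119 and 123 CPM to 1076 and 971 CPM (log2FC 3.08 ± 0.05). GADD45A, a growth arrest gene, was at 47.5 and 45.7 CPM in GFP and 154 and 167 CPM in ZMYND8 cells, and GDF15 at 31.7 and 34.1 CPM in GFP and 77.6 and 72.1 CPM in ZMYND8 cells. CDKN1A (p21), the cell cycle inhibitor, fell from 236 and 231 CPM to 155 and 159 CPM, and DDB2, a DNA repair factor, had a log2FC of -1.67 ± 0.10. In the BCL2 family, 7 of 17 tested members were higher and 6 lower. BCL2, which blocks apoptosis, was at 4.67 and 5.19 CPM in GFP and 10.6 and 10.7 CPM in ZMYND8 cells. BMF and BCL2L11 (BIM), BH3-only proteins like NOXA, were lower, BMF at 16.6 and 16.7 CPM in GFP and 3.94 and 3.73 CPM in ZMYND8 cells and BCL2L11 at 46.4 and 43.5 CPM in GFP and 25.2 and 26.6 CPM in ZMYND8 cells.

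Mitotic genes were slightly higher as a group, and 31 of 46 tested members were higher and 4 lower, with a median log2FC of 0.28. MKI67, the proliferation marker Ki-67, was at 133 and 129.6 CPM in GFP and 251 and 289 CPM in ZMYND8 cells, CENPF, a kinetochore protein, at 111 and 116 CPM in GFP and 212 and 226 CPM in ZMYND8 cells and CDK1 at 233 and 237 CPM in GFP and 358 and 317 CPM in ZMYND8 cells. KIF14, a mitotic kinesin, was lower (76.8 and 78.3 CPM in GFP and 52.2 and 53.8 CPM in ZMYND8 cells). In contrast, DNA replication genes showed no common direction, and 19 of 50 tested members were higher and 18 lower, with a median of 0.00. POLA1, the X-linked catalytic subunit of polymerase alpha, was at 24.9 and 27.5 CPM in GFP and 66.3 and 72.6 CPM in ZMYND8 cells, and CCNE1 (cyclin E1) at 20.1 and 21.9 CPM in GFP and 41.3 and 37.2 CPM in ZMYND8 cells. MCM4 and MCM6, subunits of the replicative helicase, were lower, with log2FCs of -0.59 ± 0.04 and -0.59 ± 0.05. MCM7, of the same helicase, was higher (0.46 ± 0.04). PCNA, the sliding clamp of DNA polymerases, fell from 341 and 336 CPM to 243 and 239 CPM. Of 11 replication-dependent histone genes tested, 1 was higher and 3 lower. These counts rested on single libraries, since 1 was lower without GFP replicate 1, 2 were higher without GFP replicate 2 and 0 were higher without ZMYND8 replicate 1. The higher member, H2BC21 (log2FC 0.53 ± 0.16), did not pass without GFP replicate 1 (0.42) or ZMYND8 replicate 1 (0.37). Most transcripts of replication-dependent histone genes lack a poly(A) tail and are poorly captured here.

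The DNA damage genes that the study names are MCM10, RFC3, CDC25A, CLSPN and BRCA1. This list was chosen by the study on these samples, so it is not independent evidence of a direction. At 6 h, MCM10, a replication initiation factor, was at 67.5 and 64.8 CPM in GFP and 86.5 and 94 CPM in ZMYND8 cells (log2FC 0.45 ± 0.06) and RFC3, a clamp loader subunit, at 46.4 and 50.2 CPM in GFP and 66.8 and 62.6 CPM in ZMYND8 cells (0.42 ± 0.06). The other 3 did not pass. CDC25A, the phosphatase that drives S phase, was at 83.7 and 87.3 CPM in GFP and 83.6 and 89.8 CPM in ZMYND8 cells, CLSPN (claspin, a checkpoint mediator) at 103 and 101 CPM in GFP and 95.6 and 112 CPM in ZMYND8 cells and BRCA1 at 50.2 and 55.1 CPM in GFP and 49.1 and 50.7 CPM in ZMYND8 cells. All 5 differences were lower at 6 h than at 0 h past the adjusted p, by -0.98 for MCM10, -0.26 for RFC3, -0.65 for CDC25A, -0.63 for CLSPN and -0.57 for BRCA1 on the log2 scale. CDC25A, for example, was at 22.8 and 22.4 CPM in GFP and 34.8 and 36.8 CPM in ZMYND8 cells at 0 h, so the level at 6 h was above that at 0 h in both lines. Of the 50 replication genes, 19 had an effect that differed from 0 h, and the effect was lower at 6 h in each of these, where 13.4% of all tested genes differed at any fold and 5.52% were lower.

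The study also names stemness, drug resistance and mesenchymal genes, which it measured by other means in this cell line. Of its 15 members 11 were tested, 7 were higher and 2 lower, and the median log2FC was 0.28. SNAI2 (Slug), a repressor of epithelial genes, was at 62 and 59.9 CPM in GFP and 149 and 145 CPM in ZMYND8 cells, a log2FC of 1.27 ± 0.05. ABCC1, a drug efflux pump, was at 10.4 and 7.87 CPM in GFP and 18 and 22.2 CPM in ZMYND8 cells (1.14 ± 0.17), and BMI1, a Polycomb subunit, at 69.1 and 66.9 CPM in GFP and 97.7 and 91.1 CPM in ZMYND8 cells (0.47 ± 0.05). CD24, a surface mucin, had a log2FC of 0.37 ± 0.07 and NOTCH1 one of 0.28 ± 0.08. VIM (0.14 ± 0.04) and the weakly expressed ABCC2 (1.26 and 1.18 against 2.27 and 1.89 CPM, 0.77 ± 0.28) also passed. NOTCH1 no longer passed without ZMYND8 replicate 2 (0.10), VIM without that library or GFP replicate 2 (0.09 in both cases), and ABCC2 without either GFP library (0.82 and 0.72) or ZMYND8 replicate 1 (0.63). With DESeq2 neither VIM (0.13) nor ABCC2 (0.76) passed, and ABCC2 did not pass without a filter on low counts (0.74). CD44, the hyaluronan receptor, fell from 1344 and 1291 CPM to 842 and 829.5 CPM, and SOX9 from 199 and 183 CPM to 129 and 141 CPM. ZEB1 did not pass, at 73.9 and 73.2 against 78.6 and 73.8 CPM. ABCB1, the P-glycoprotein gene, had 0 counts in all 4 libraries, and POU5F1, NANOG and SOX2 were too low to test.

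In both the epithelial and the mesenchymal list more members were lower than higher, with median log2FCs of -0.29 and -0.28. Of the mesenchymal genes, 9 of 28 tested members were higher and 12 lower (32.1% and 42.9%). Of the epithelial genes, 7 of 30 tested members were higher and 14 lower (23.3% and 46.7%). Over all tested genes 28.9% were higher and 26.6% lower, so both higher shares were not far from the background. ZEB2, an epithelial repressor, was at 14.7 and 15.9 CPM in GFP and 26.7 and 25 CPM in ZMYND8 cells, TAGLN at 23.4 and 24.4 CPM in GFP and 40.02 and 42 CPM in ZMYND8 cells, and LOX, which crosslinks collagen, at 93.8 and 91.2 CPM in GFP and 22.4 and 24.7 CPM in ZMYND8 cells. TGFBI, a matrix protein induced by TGF-beta, was at 469 and 441 CPM in GFP and 86 and 92.4 CPM in ZMYND8 cells. CDH1 (E-cadherin) was low in both lines but rose from 1.05 and 0.749 CPM to 4.34 and 3.2 CPM, CLDN4 was at 58 and 53.1 CPM in GFP and 119.96 and 126 CPM in ZMYND8 cells, and ST14 (matriptase) and its inhibitor SPINT1 fell, the latter from 32.1 and 26.7 CPM to 5.03 and 4.94 CPM. Among keratins, 6 of 13 tested members were higher and 5 lower, and 3 were higher with at least 10 counts required in every library. KRT14, of basal epithelium, rose from 0.105 and 0.214 CPM to 5.08 and 5.73 CPM, while KRT19 fell from 196 and 193 CPM to 104 and 107 CPM and KRT80 from 197 and 190.01 CPM to 108 and 115 CPM. Keratin genes have near-identical pseudogenes, which makes their counts less certain. Of the luminal markers, 6 of 12 tested members were higher and 4 lower. Their sum was 1611 and 1536 CPM in GFP and 1371 and 1386 CPM in ZMYND8 cells. The abundant keratins KRT8 and KRT18 were lower, with log2FCs of -0.17 ± 0.04 and -0.23 ± 0.05. TFF3 was at 0.892 and 0.91 CPM in GFP and 3.45 and 4.15 CPM in ZMYND8 cells and XBP1 at 87.8 and 89.9 CPM in GFP and 125 and 119 CPM in ZMYND8 cells.

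Enzymes that remodel the matrix were mostly lower, and of proteases, TIMPs and serpins 6 of 34 tested members were higher and 21 lower (median log2FC -0.69). PLAT, tissue plasminogen activator, fell from 622 and 598 CPM to 39.2 and 40.3 CPM (log2FC -3.94 ± 0.05). MMP14, the membrane-bound activator of other metalloproteinases, was at 696 and 643 CPM in GFP and 224 and 244 CPM in ZMYND8 cells, MMP1, a collagenase, at 58.1 and 60.1 CPM in GFP and 13.7 and 12.2 CPM in ZMYND8 cells, and ADAMTS12 at 153 and 158 CPM in GFP and 23 and 23.5 CPM in ZMYND8 cells. On the other side, SERPINB2 was at 3.99 and 3.91 CPM in GFP and 28.7 and 26.5 CPM in ZMYND8 cells, ADAMTS1 at 10.03 and 9.15 CPM in GFP and 45.2 and 53.9 CPM in ZMYND8 cells, and TIMP1, an X-linked inhibitor of metalloproteinases, at 233 and 219 CPM in GFP and 421 and 415 CPM in ZMYND8 cells. Of the collagens and laminins, 14 of 37 tested members were higher and 16 lower (37.8% and 43.2%, against 28.9% and 26.6% of all tested genes). COL4A5 and COL4A6 are basement membrane collagens and neighbours on the X chromosome. COL4A5 rose from 9.4 and 11.2 CPM to 49.6 and 48.7 CPM and COL4A6 from 0.157 and 0.642 CPM to 5.18 and 5.1 CPM, while COL6A3 fell from 49.5 and 47.6 CPM to 15.5 and 18.5 CPM. Of the integrins, 5 of 22 tested members were higher and 9 lower (22.7% and 40.9%). ITGA5 was at 183 and 177 CPM in GFP and 247 and 269 CPM in ZMYND8 cells. ITGA1 was at 59.8 and 61.5 CPM in GFP and 26.1 and 19.8 CPM in ZMYND8 cells, and ITGB8 at 20.6 and 21.9 CPM in GFP and 7.2 and 6.51 CPM in ZMYND8 cells.

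Growth factor genes were mixed. Of the receptor tyrosine kinases and ligands, 18 of 41 tested members were higher and 11 lower (43.9% and 26.8%). Over all tested genes 28.9% were higher and 26.6% lower, so the lower share was near that background. EREG, an EGF receptor ligand, was at 15.9 and 17.9 CPM in GFP and 90.8 and 90.9 CPM in ZMYND8 cells, and KITLG, the ligand of KIT, at 11.2 and 11.8 CPM in GFP and 44.7 and 40.5 CPM in ZMYND8 cells. EGFR and AXL, both abundant in this cell line, had log2FCs of 0.58 ± 0.05 and 0.69 ± 0.04. Of the Wnt list, 10 of 36 tested members were higher and 18 lower (27.8% and 50%), and the higher share was near the background. WNT5A, a non-canonical ligand, rose from 0.787 and 0.482 CPM to 12.7 and 11.6 CPM, and LRP5, a co-receptor, fell from 286 and 260.1 CPM to 106 and 117 CPM. Of the TGF-beta and BMP family, 13 of 40 tested members were higher and 14 lower (32.5% and 35%), not far from the background in either direction. TGFB1 was at 234 and 198 CPM in GFP and 60.7 and 67.8 CPM in ZMYND8 cells, and NOG (noggin), an antagonist of BMPs, fell from 202 and 196 CPM to 31.7 and 35.1 CPM (log2FC -2.58 ± 0.05).

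Of the ABC drug transporters, 3 of 11 tested members were higher and 6 lower (27.3% and 54.5%). The higher share was near the 28.9% of all tested genes. ABCG2, a pump that exports anthracyclines, rose from 1.36 and 0.91 CPM to 12.8 and 14 CPM, and ABCA3 fell from 45 and 38.5 CPM to 13.8 and 15.2 CPM. Among targets and metabolism of doxorubicin, 8 of 19 tested members were higher and 8 lower. The topoisomerase TOP2A, the drug's main target, was at 482 and 466 CPM in GFP and 606 and 617 CPM in ZMYND8 cells (log2FC 0.37 ± 0.04). AKR1C1, a carbonyl-reducing enzyme with close paralogues, was at 3.36 and 2.89 CPM in GFP and 19.9 and 17.6 CPM in ZMYND8 cells, and CAT (catalase) at 103 and 97.1 CPM in GFP and 49 and 48.5 CPM in ZMYND8 cells. Of the hypoxia and glycolysis genes, 8 of 34 tested members were higher and 20 lower (23.5% and 58.8%). ADM (adrenomedullin) was at 47.3 and 46.6 CPM in GFP and 146 and 142 CPM in ZMYND8 cells, PFKL, a glycolytic enzyme, at 229 and 208 CPM in GFP and 107 and 112 CPM in ZMYND8 cells, and ALDOC at 31 and 26.3 CPM in GFP and 5.37 and 5.88 CPM in ZMYND8 cells.

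Lists of silent or lineage genes held few tested members. Of 39 HOX genes 14 were tested, and 1 was higher and 2 lower (7.14% and 14.3%, both below the shares over all tested genes). HOXB9, a lower member, was at 39.4 and 36.1 CPM in GFP and 28.2 and 28.4 CPM in ZMYND8 cells. The other lower member, HOXB3 (log2FC -0.43 ± 0.17), did not pass without GFP replicate 2 (-0.25), ZMYND8 replicate 1 (-0.44) or ZMYND8 replicate 2 (-0.42). Without GFP replicate 2, with DESeq2 or without a filter on low counts 0 were higher and 1 was lower, without ZMYND8 replicate 2 0 were higher, and in the 4 libraries fitted alone 1 was lower. Of 35 cancer testis genes 16 were tested, 8 were higher, BRDT among them, and 2 lower. Without GFP replicate 1 or with DESeq2 0 were lower, without either ZMYND8 library 1 was lower, and with at least 10 counts required in every library 4 were higher. MAGEA6 and MAGEA3 are near-identical X-linked genes, so their counts are uncertain. MAGEA6 was at 0.262 and 0.696 CPM in GFP and 7.25 and 8.56 CPM in ZMYND8 cells, and MAGEA3 at 0.84 and 1.12 CPM in GFP and 4.29 and 5.1 CPM in ZMYND8 cells. Genes of other lineages moved with the comparison. Of 10 leukocyte markers 4 were tested and 3 were lower, with sums of 17.9 and 18.5 CPM in GFP and 3.65 and 4.25 CPM in ZMYND8 cells. Most of that sum was CD14, at 14.5 and 15.4 CPM in GFP and 2.12 and 2.57 CPM in ZMYND8 cells, while PTPRC (CD45), which defines leukocytes, was at 0.472 and 0.375 against 0.0493 and 0.158 CPM. All 5 tested fibroblast markers of 7 were lower (3 in the 4 libraries fitted alone, and 2 with at least 10 counts required in every library, which tests fewer genes), with sums of 25.5 and 24.4 CPM against 8.82 and 8.88 CPM. COL1A1 (11.5 and 13.2 against 6.46 and 6.88 CPM) and PDGFRB (10.1 and 7.92 against 2.17 and 1.68 CPM) made up most of it, and DCN, a proteoglycan of fibroblasts, was at 0.262 and 0.161 against 0 and 0 CPM. Of 6 endothelial markers 5 were tested and 3 were lower, with sums of 5.88 and 6.05 CPM against 1.77 and 2.68 CPM. The part of such genes in the other results was not tested. In bulk RNA, fewer cells that express a gene and less RNA per cell cannot be told apart.

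**Figure D4:**
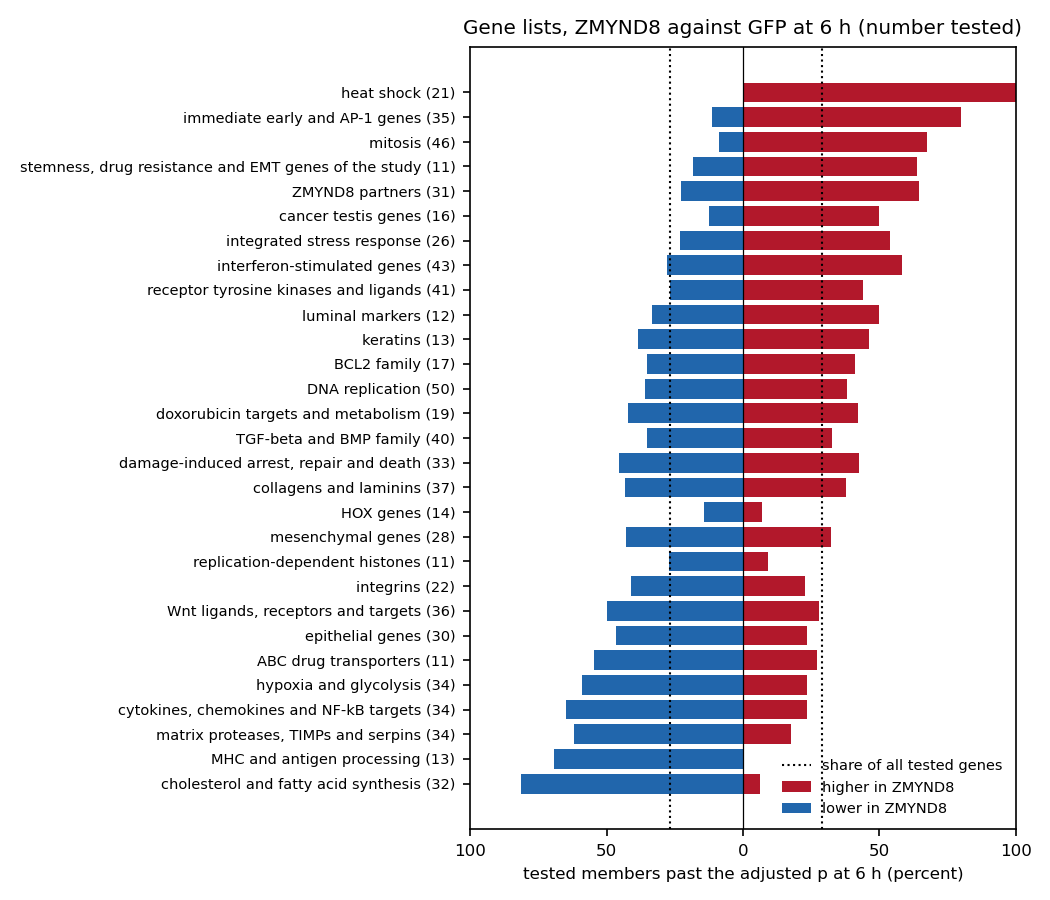
Share of tested members (percent, number tested in brackets) that passed the adjusted p at 6 h and were higher (red, right) or lower (blue, left) in ZMYND8 cells, for the lists with at least 10 tested members. Dotted lines mark the shares over all 18801 tested genes, 28.9% higher and 26.6% lower.

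The X chromosome held more called genes in one direction than the genome as a whole. Of its 593 tested genes 106 (17.9%) were called higher, against 6.26% of all tested genes, and 31 were called lower. The median log2FC was 0.48 on the X chromosome, 0.28 on chromosome 13, 0.24 on chromosome 7 and -0.29 on chromosome 14, where 85 of 618 tested genes were called lower. These medians were 0.42, 0.29, 0.20 and -0.28 at 0 h and 0.54, 0.28, 0.21 and -0.36 at 48 h. KDM5C, KDM6A, TIMP1, MSN, POLA1, COL4A5 and the MAGEA genes named above are X-linked. KDM6A, a demethylase of histone H3 lysine 27, was at 36.7 and 38.4 CPM in GFP and 64.3 and 68.3 CPM in ZMYND8 cells, and MSN (moesin) at 626 and 582 CPM in GFP and 931 and 993 CPM in ZMYND8 cells.

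Much of the 6 h difference was already there without doxorubicin. Of the 3014 genes called at 6 h, 2120 were called in the same direction at 0 h (70.3% of the 6 h list and 63.4% of the 3345 genes called at 0 h, which were 17.8% of those tested). The other 9 genes called at both times had opposite directions. At 48 h, 1778 were called in the same direction (59.0% of the 6 h list and 54.1% of the 3285 genes called then, 17.5% of those tested), and 14 in the opposite one. All 3 times shared 1499 genes in 1 direction, 507 higher and 992 lower. These comparisons share no library but rest on the same 2 lines. A total of 359 genes called at 6 h passed the adjusted p at neither other time. The median absolute log2FC of the genes called at 6 h was 1.78 at that time, where they were selected, 1.56 at 0 h and 1.26 at 48 h.

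The difference between lines itself differed between 6 h and 0 h for 194 genes (1.03% of those tested), with 101 (0.537%) above and 93 (0.495%) below, a split that became 80 above and 128 below with library totals as the scale. DESeq2 gave 82 such genes. For ADM, called higher at 6 h, the lines differed less before the drug. It was at 59.2 and 64 CPM in GFP and 70.8 and 68.1 CPM in ZMYND8 cells at 0 h, and its effect at 6 h exceeded that at 0 h by 1.45 ± 0.08 (adjusted p = 1.11e-12, edgeR). BTG2, an antiproliferative gene, was at 2.38 and 2.58 CPM in GFP and 1.79 and 1.31 CPM in ZMYND8 cells at 0 h and 8.29 and 7.49 CPM in GFP and 1.28 and 1.42 CPM in ZMYND8 cells at 6 h, a difference of -1.85 ± 0.32. DHRS3, a retinal reductase, was at 8.72 and 9.86 CPM in GFP and 2.12 and 2.14 CPM in ZMYND8 cells at 0 h and at 1.26 and 1.45 CPM in GFP and 1.53 and 1.42 CPM in ZMYND8 cells at 6 h, where the lines no longer differed past the threshold. DUSP6, the ERK phosphatase, went from 265 and 270.2 against 105 and 106 CPM at 0 h to 173 and 174 against 126 and 129 CPM at 6 h (GFP against ZMYND8). EREG and GADD45A had larger effects at 6 h than at 0 h, by 0.87 and 0.55, and their effects at 48 h differed from those at 6 h by -0.82 and -0.90. GDF15, a stress cytokine, was at 118 and 128 CPM in GFP and 161 and 146 CPM in ZMYND8 cells at 0 h, and at 6 h it was lower than at 0 h in each line but less so in ZMYND8 cells (difference 0.87 ± 0.09).

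Some of the largest differences between times came from genes whose replicates differed widely. Others given below, such as LAMA1, had replicates that lay closer together. ITPK1, an inositol phosphate kinase, was at 25.4 and 6.32 CPM in GFP and 5.03 and 2.94 CPM in ZMYND8 cells at 6 h, and PIP4K2B, a lipid kinase, at 2.05 and 6.37 CPM in GFP and 1.18 and 2.15 CPM in ZMYND8 cells. Without GFP replicate 1 the log2FC of ITPK1 at 6 h was -0.66, and without GFP replicate 2 that of PIP4K2B was -0.30, neither past the adjusted p. For PIP4K2B the difference between times was then -1.37 (adjusted p = 0.199). Its 6 h log2FC also did not pass without ZMYND8 replicate 1 (-0.96) or with DESeq2 (-1.35). XAGE1B, a cancer testis gene with a near-identical copy, was at 20.5 and 2.09 CPM in GFP and 2.56 and 3.99 CPM in ZMYND8 cells, and its log2FC at 6 h was -1.79 with all libraries and 0.64 without GFP replicate 1. Its difference between times was then -0.16 (adjusted p = 0.92), and without ZMYND8 replicate 1 it also did not pass (-2.30, adjusted p = 0.0896). PRPF8, a core spliceosome protein, was at 4.3 and 4.98 CPM in GFP and 25.5 and 17.8 CPM in ZMYND8 cells at 6 h and 19.1 and 19.3 CPM in GFP and 4.8 and 20.9 CPM in ZMYND8 cells at 0 h. PARN, a poly(A) ribonuclease, was at 3.2 and 2.57 CPM in GFP and 2.46 and 4.36 CPM in ZMYND8 cells at 6 h and 4.71 and 6.49 CPM in GFP and 0.223 and 0.131 CPM in ZMYND8 cells at 0 h. RN7SL5P, a pseudogene of the signal recognition particle RNA, was at 23.9 and 22.7 CPM in GFP and 0.838 and 0.158 CPM in ZMYND8 cells at 6 h and 26.3 and 0.422 CPM in GFP and 20.2 and 0.306 CPM in ZMYND8 cells at 0 h. MKX, a homeobox factor of tendon, was at 2.15 and 2.25 CPM in GFP and 4.29 and 3.94 CPM in ZMYND8 cells at 6 h and 2.99 and 5.06 CPM in GFP and 2.23 and 1.44 CPM in ZMYND8 cells at 0 h, with log2FCs of 0.90 ± 0.25 and -1.15 ± 0.26, and LMO2, a haematopoietic adaptor, had log2FCs of -2.46 ± 0.33 and -4.60 ± 0.38. LAMA1, a laminin chain, was at 1.57 and 1.82 CPM in GFP and 3.84 and 3.41 CPM in ZMYND8 cells at 6 h and at 0.101 and 0.0527 CPM in GFP and 1.62 and 2.58 CPM in ZMYND8 cells at 0 h. DESeq2 gave an adjusted p of 0.0572 for the difference between times of PRPF8 and 0.255 for RN7SL5P, and none for PARN, MKX, LMO2, LAMA1, XAGE1B and PIP4K2B. The difference for RN7SL5P also did not pass without any 1 of the 4 libraries at 6 h (edgeR, adjusted p from 0.0639 to 0.131).

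Between 48 h and 6 h the difference between lines differed for 703 genes (3.74%), 393 (2.09%) above and 310 (1.65%) below, 441 of them among the genes called at 6 h. CPA4, a carboxypeptidase, was at 6.04 and 4.12 CPM in GFP and 41 and 45.6 CPM in ZMYND8 cells at 6 h and at 27.8 and 27.8 CPM in GFP and 32.5 and 32.1 CPM in ZMYND8 cells at 48 h, so the lines drew together. EFNB3, an ephrin, went from 7.87 and 8.51 against 0.296 and 0.0525 CPM to 1.07 and 1.18 against 0.163 and 0.596 CPM (GFP against ZMYND8). PTPRK, a receptor phosphatase, was at 5.93 and 10.2 CPM in GFP and 1.03 and 1.21 CPM in ZMYND8 cells at 6 h and 0.266 and 0.336 CPM in GFP and 3.37 and 2.42 CPM in ZMYND8 cells at 48 h, a reversal of direction. BRDT, absent from the GFP counts at 6 h, was at 0.977 and 0.631 CPM in GFP and 21.1 and 22.4 CPM in ZMYND8 cells at 48 h, and AMPH at 1.64 and 1.3 CPM in GFP and 6.95 and 7.49 CPM in ZMYND8 cells. NTM and MMP8 were lower in GFP cells at 48 h than at 6 h, NTM at 2.44 and 2.4 CPM in GFP and 0.0813 and 0.0851 CPM in ZMYND8 cells and MMP8 at 2.44 and 1.89 CPM in GFP and 0.325 and 0.51 CPM in ZMYND8 cells, and NYNRIN, a gene partly derived from a retrovirus, was at 3.94 and 4.34 CPM in GFP and 0 and 0 CPM in ZMYND8 cells at 6 h and 13.7 and 15.4 CPM in GFP and 0.285 and 0.34 CPM in ZMYND8 cells at 48 h. The difference between times of NYNRIN did not pass without any 1 of the 4 libraries at 6 h (adjusted p from 0.0521 to 0.205), with DESeq2 (0.0972) or without a filter on low counts (0.101), nor that of NTM without ZMYND8 replicate 1 (0.0529). CD99, a surface glycoprotein of the pseudoautosomal region, was at 7.51 and 4.66 CPM in GFP and 89.5 and 14.3 CPM in ZMYND8 cells at 6 h, and without ZMYND8 replicate 1 its log2FC of 3.10 ± 0.93 became 1.23, which did not pass, and with DESeq2 it was 3.08 (adjusted p = 0.0843). Its difference between 48 h and 6 h did not pass without GFP replicate 1 (-3.90), GFP replicate 2 (-3.21) or ZMYND8 replicate 1 (-1.65), nor with DESeq2 (adjusted p from 0.0647 to 0.417 over these). In the plot of effects by time, the DNA damage genes start above 0 at 0 h and lie lower at 48 h. At 48 h CLSPN (-0.24), BRCA1 (-0.22) and MCM10 (-0.15) were lower in ZMYND8 cells past the adjusted p, while RFC3 (0.09) and CDC25A (-0.08) did not pass.

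**Figure D5:**
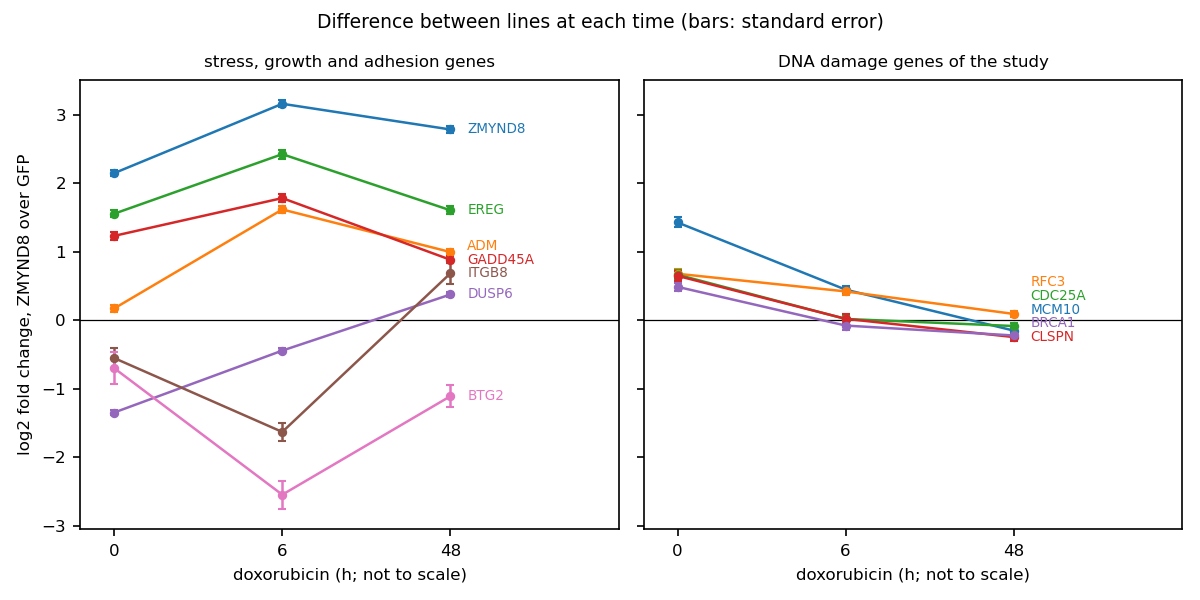
Log2 fold change of ZMYND8 over GFP cells (vertical axis, bars are standard errors) at 0, 6 and 48 h of doxorubicin (horizontal axis, not to scale), 1 line per gene. ADM goes from 0.17 at 0 h to 1.62 at 6 h and BTG2 from -0.70 to -2.54, and MCM10 falls from 1.43 to 0.45.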

How the data were processed

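The authors sequenced polyadenylated RNA from MDA-MB-231 lines with inducible ZMYND8 or GFP. They deposited unnormalized counts, 1 number per gene and library, obtained with featureCounts 1.6.4 on GENCODE 31 (hg38) in reverse-stranded mode, with multi-mapping reads left out, which lowers genes with near-identical copies. The study's methods name TopHat with Bowtie2 as aligner, and the submitters' processing notes name HISAT2. The deposited table gave positions; symbols and biotypes came from a reference annotation, which matched 60261 of 60603 identifiers.

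The 12 libraries of the inducible system, 2 per construct and time, were fitted together with edgeR 4.0.16 in R 4.3.3 (TMM factors, filtering by expression, quasi-likelihood test, one mean per condition). The 6 libraries of transient cells were not fitted, and 2 of them, the controls, served for single look-ups. P-values were adjusted over all 18801 tested genes by Benjamini-Hochberg. A gene was called at an adjusted p of at most 0.05 and an absolute log2 fold change of at least 1, and "higher", "lower", "rose" and "fell" refer to the adjusted p alone. The difference of the construct effect between times was tested as an interaction. An exact permutation test of 2 against 2 libraries cannot give a two-sided p below 0.333. The p-values measure the spread between these libraries of 1 line per construct. CPM values were TMM-normalized. Where a group held 0 counts, folds were computed against a floor of 3 counts per library, and with 1 to 3 counts as a ratio with its 95% exact interval. Floors and intervals cover counting error only.

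Counts were simulated, with 18415 genes tested and 200 changed for the 6 h comparison. The changed genes were drawn from those with an expected count of at least 10. The test recovered 77% of genes changed 2-fold and 95% of those changed 4-fold, and 8.51% of its 188 adjusted calls were false. With the log2 cutoff 6 false calls were left. DESeq2 1.42.0, other scalings, other filters, a replicate block and leaving out each library were tried as alternatives.

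The comparison, the gene lists and the named genes were chosen with earlier results of these data known. Named genes were ZMYND8 and the genes the study names, the 8 highest and 8 lowest log2 fold changes among called genes with a symbol, no overlap between groups and an average of at least 1 log2 CPM, and the same at 5 log2 CPM. Added to these were up to 5 in each direction for each difference between times and up to 3 in each direction of each list among those past the adjusted p. Further members of a list were named beside its counts, after their values were seen. The replicate numbers shared by both groups were checked for pairing. The replicate differences of GFP and ZMYND8 cells at 6 h correlated at -0.25 across 6751 genes, so the numbers were not taken as pairs. Some genes of the lists count in the totals and are not reported here by name.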

Additional observations from a re-analysis of the deposited data

Results flagged for a closer look

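In 17 of the 200 named genes the difference between ZMYND8 and GFP cells itself differed between 6 h and 0 h (edgeR interaction). The thresholds were the adjusted p and a difference of at least 1 on the log2 scale. Over all tested genes the share was 1.03%. Some genes were named because this difference was large, so the count is no result about the named genes. The effect at 6 h was above that at 0 h by 1.45 for ADM, 1.02 for BMF, 2.24 for DHRS3, 2.14 for LMO2, 2.05 for MKX, 5.21 for PARN, 2.75 for PRPF8 and 1.01 for ZMYND8. It was below that at 0 h for BTG2 (-1.85), ITGB8 (-1.08), ITPK1 (-3.51), KRT17 (-1.81), LAMA1 (-3.58), PIP4K2B (-2.40), RN7SL5P (-5.01), SPARC (-1.87) and XAGE1B (-2.60). The values of XAGE1B and PIP4K2B became -0.16 and -1.37, not past the adjusted p, without GFP replicate 1 and 2 respectively. The ITPK1 difference of the effects, 6 h minus 0 h, was -2.18 without GFP replicate 1 and still passed. KRT17 was at 1.52 and 0.844 CPM in GFP and 148 and 151 CPM in ZMYND8 cells at 0 h, and SPARC at 161 and 165 CPM in GFP and 1.56 and 0.788 CPM in ZMYND8 cells.

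In 47 of the 200 named genes the difference changed between 6 h and 48 h in the same sense, a comparison that shares the 6 h libraries with the one above. Over all tested genes the share was 3.74%, and here too some genes were named because this difference was large. The effect at 48 h was above that at 6 h for 21 genes, BMP2 (1.55), BTG2 (1.44), COL27A1 (1.41), COL4A4 (1.00), CXCL11 (1.38), CXCL8 (1.01), EFNB3 (3.91), GDF5 (1.78), HOXB3 (1.05), ICAM1 (1.30), ITGB8 (2.32), KRT86 (1.26), MMP8 (5.74), NTM (5.51), NYNRIN (3.92), PARN (3.36), PTPRK (6.08), SERPINA5 (3.18), SERPINB2 (1.11), TENM2 (2.44) and XAGE1B (3.38). It was below that at 6 h for 26 genes, ABCC1 (-1.12), ABCC9 (-2.02), ABCG2 (-1.72), AMPH (-3.77), ANGPTL4 (-1.30), BRDT (-7.17), CA9 (-1.82), CD99 (-3.51), CDH1 (-1.10), COL4A6 (-1.95), CPA4 (-2.87), CTH (-1.06), DHRS3 (-3.22), EGR2 (-1.50), ELF3 (-2.45), FGF5 (-1.15), GDF15 (-1.04), HSPA6 (-1.09), HSPB8 (-1.02), IL11 (-2.10), LAMA4 (-1.80), RSAD2 (-1.85), SLC4A4 (-2.82), TP63 (-1.87), UCA1 (-1.42) and WNT5A (-1.14). PARN was at 0.222 and 0.0841 CPM in GFP and 3.5 and 0.255 CPM in ZMYND8 cells at 48 h, so the ZMYND8 libraries of that time lay far apart, and the value without either was not computed. For XAGE1B the log2 fold change was 1.59 at 48 h and -1.79 at 6 h, and the latter was 0.64 without GFP replicate 1. Leaving out 1 library at 6 h, the difference no longer passed for TP63, XAGE1B, CD99, BMP2 and NYNRIN without GFP replicate 1 (-1.28, 0.94, -3.90, 1.64 and 4.00), for WNT5A, CDH1, COL4A4, CD99, BMP2 and NYNRIN without GFP replicate 2 (-0.83, -0.88, 0.91, -3.21, 1.45 and 3.87), for WNT5A, CDH1, TP63, COL4A4, CD99, BMP2, SERPINA5, NYNRIN and NTM without ZMYND8 replicate 1 (-1.07, -0.86, -1.78, 1.06, -1.65, 1.30, 2.21, 3.93 and 5.52), and for COL4A4, GDF5 and NYNRIN without ZMYND8 replicate 2 (0.94, 1.13 and 3.93). With DESeq2 those of WNT5A, CD99, PARN, COL4A4 and NYNRIN did not pass, and without a filter on low counts those of WNT5A, COL4A4 and NYNRIN. Among those that still passed, the COL4A6 difference of the effects, 48 h minus 6 h, was -1.27 without GFP replicate 1 and -3.26 without GFP replicate 2, and the TP63 difference of the effects, 48 h minus 6 h, was -2.84 without GFP replicate 2. The GDF5 difference of the effects, 48 h minus 6 h, was 3.14 without ZMYND8 replicate 1, and the SERPINA5 difference of the effects, 48 h minus 6 h, was 6.44 without ZMYND8 replicate 2. IL11 was at 54.1 and 55.7 CPM in GFP and 213 and 206 CPM in ZMYND8 cells at 48 h, HSPA6 at 0.621 and 1.47 CPM in GFP and 24 and 25.5 CPM in ZMYND8 cells and UCA1 at 26.5 and 28.1 CPM in GFP and 265 and 239 CPM in ZMYND8 cells. Where a group held 0 or few counts, as for BRDT, NTM, NYNRIN, MMP8, SERPINA5, LAMA1 and RN7SL5P, the size of the fitted difference depends on the prior count and gives no bound.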

How the results depend on the processing

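With at least 10 counts required in every library, 1680 genes were called at 6 h and 431 differed between 48 and 6 h, since fewer genes were tested. With a log2 cutoff of 1.5, 1873 were called, or 1994 at an unadjusted p. DESeq2 gave 82 genes that differed between 6 and 0 h and 394 between 48 and 6 h, and the cause was not tested. Leaving out 1 library gave 2784 to 2835 called genes, 9256 to 9511 past the adjusted p, 164 to 205 that differed from 0 h, 593 to 640 that differed at 48 h, and 3.10 to 3.22 for ZMYND8. The XAGE1B log2 fold change at 6 h ranged from -2.65 without GFP replicate 2 to 0.64 without GFP replicate 1. Of 2762 values of named genes under an alternative, 2668 kept their direction and side of the threshold, 93 no longer passed and 1 reversed. Of 748 list counts, 721 stayed within 1.5 times. The replicate block gave 2975 called genes and changed no named call. The crossed pairing, added after seeing the data, gave 2979. All 4 libraries at 6 h fitted alone gave 2554, and DESeq2 2628. With 2 libraries a group from 1 line per construct, no spread between independent lines was measured.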
